A study of Emberiza melanocephala with 4 samples.

Results

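Ion channel subunits were the genes whose name in the deposited annotation began with the root symbol of a channel family: potassium (KCN), calcium (CACN), sodium (SCN), GABA, glycine, ionotropic glutamate and nicotinic receptors, TRP, HCN, CLCN, CLIC, P2RX, CNG and ASIC. Of 2239 genes with a reference match in at least 1 of 4 libraries, 29 bore such a name, and 27 remained after KCNV2 and KCNMB1 were left out by the same rule. No gene of the sodium channel, HCN, CNG, purinergic or acid-sensing families carried a name in these files, and genes without a name in any file have no value here, so nothing follows about their expression.

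The RNA came from wild-caught black-headed buntings (Emberiza melanocephala), a migratory songbird with a seasonal gonad, and is labelled as testis in all 4 libraries. There was 1 library for each labelled testicular state: sensitive, early stimulated, late stimulated and refractory. The labels give no age or number of birds per library. Because a state is represented by a single library, nothing below has a replicate check or a p-value, and each difference describes these libraries.

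Values are given in the order sensitive, early, late and refractory unless a sentence says otherwise, and the aligned bases behind them were 120.5, 200.8, 428.4 and 318.1 Mb. A level is the summed coverage that listed transcripts put on the exons of a gene, per base of exon and per aligned base, in FPKM units. Some genes hold a long last exon with low or no coverage, which lowers their level, so ratios between genes depend on the annotated exons. Assembled transcripts that matched no reference gene were absent below a coverage of 2.5, a floor of 20.8 FPKM in sensitive, 12.5 in early, 5.84 in late and 7.86 in the refractory library. "Uncovered" below means that no listed transcript lay over the exons, which is not a measured absence. Transcripts matched to the reference were listed under this floor too, those with a single exon down to a coverage of 0.

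Marker genes were set beside the label testis. A marker without a value bore no name in any file, so nothing follows about its expression. Of 8 Leydig cell markers none had a value, of 10 Sertoli cell markers only INHA had one, and of 16 germ cell markers TDRD6, GFRA1 and MEIG1 did, with a summed level of 12.9 FPKM in sensitive and 4.55 to 8.39 FPKM in the other libraries. Photoreceptor markers, 10 of 20 with a value, summed to 10.1 FPKM in sensitive and to 1580, 893 and 1672 FPKM in early stimulated, late stimulated and refractory. Neuron markers, 11 of 20 with a value, summed to 20.4 FPKM in sensitive and to 1632, 1600 and 1461 FPKM in the others, and in sensitive only ENO2, SCG3 and UCHL1 of these were covered. None of 5 smooth muscle markers had a value, and of 8 glial markers RLBP1 and AQP4 did, both uncovered in sensitive. Against sensitive, most channel genes were higher in the comparisons below, as were these neuron and photoreceptor markers, whose part in the results was not tested.

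Ion channels are membrane pores that open on a change in voltage, on binding of a transmitter or on other signals. Most are assembled from several subunits, so a channel's make-up depends on which subunit genes a cell transcribes. GABA and glycine receptors are pentameric anion channels of inhibitory synapses. Nicotinic receptors and AMPA-type glutamate receptors carry cations and excite, and potassium channels set the resting potential and end the action potential. In bulk RNA, fewer cells of a type and less RNA per cell cannot be told apart.

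The 27 genes lay on 22 scaffolds of the collared flycatcher assembly FicAlb_1.4. Of these genes 9 had a model of a single exon, 492 to 1500 bases long, and all 9 lengths were multiples of 3, as for a coding sequence without untranslated parts. The other 18 had 2 to 18 exons and 820 to 5784 exon bases. All 9 single-exon genes were potassium channel genes. There were 5 pairs that shared a scaffold, the closest being CHRNA5 and CHRNB4 with 18.4 kb between them on opposite strands.

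In sensitive 19 of the 27 genes (70.4%) were uncovered, against 2, 1 and 1 in the later libraries. Of all 2239 genes 33.5% were uncovered in sensitive and 21.3%, 17.3% and 16.7% in the later libraries. The median member level was 0 FPKM in sensitive and 15.0, 15.6 and 17.5 FPKM in the later libraries, while the median over all 2239 genes was 4.17, 8.53, 8.01 and 8.59 FPKM. Members at 10 FPKM or more numbered 3, 16, 17 and 15 in the 4 libraries. That is 11.1% of members in sensitive against 41.3% of all genes, and 59.3%, 63.0% and 55.6% of members against 48.1%, 46.4% and 47.7% of all genes in the others. Channel genes were thus mostly uncovered in sensitive, and a larger share of them than of all genes reached 10 FPKM in each later library. Sensitive was also the shallowest library with the highest floor.

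**Figure D1:**
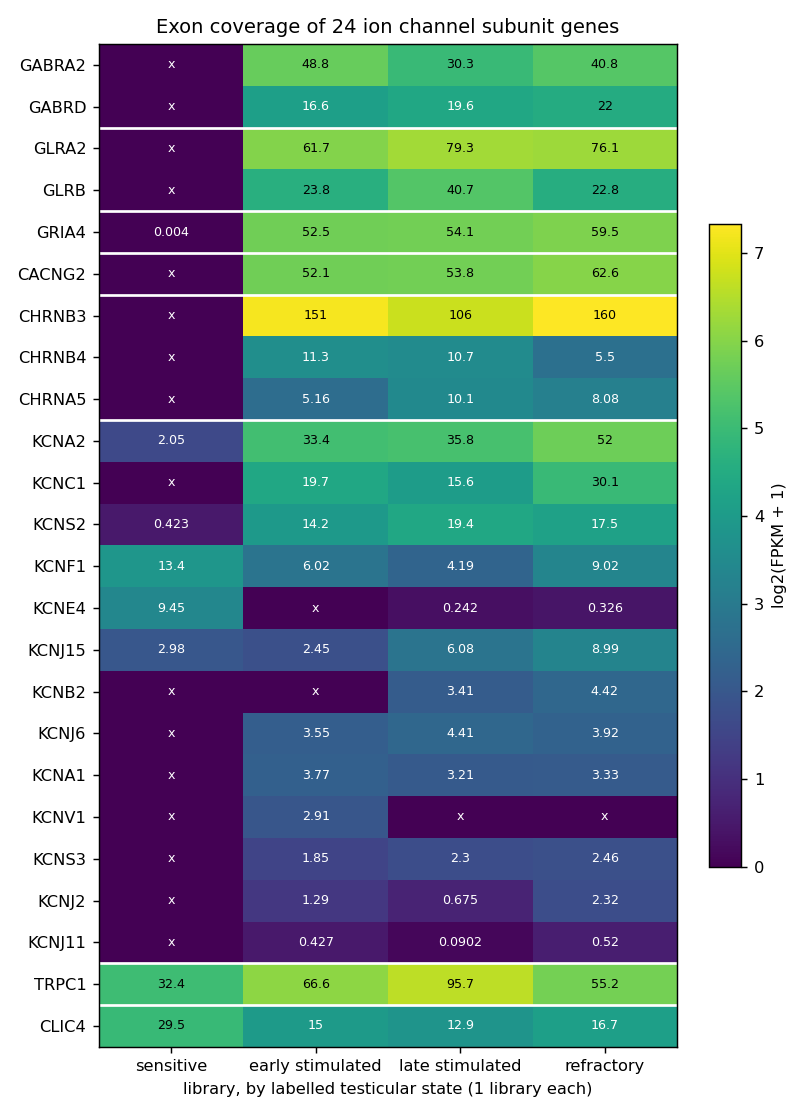
Exon coverage of 24 channel genes (rows, grouped by family and ordered by highest level) in the 4 libraries (columns), coloured by log2(FPKM + 1) and printed in FPKM, with x for uncovered. The sensitive column is uncovered for most genes, and TRPC1, CLIC4 and KCNF1 are its only values over 10 FPKM.

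GABA receptor subunits were the largest group of transmitter receptors, with 5 genes, all uncovered in sensitive and all covered in the later libraries. Together they summed to 273 FPKM in early stimulated and to 385 and 361 FPKM in the libraries after it. GABRA2, an alpha subunit (ENSFALG00000002972, minus strand of JH603228.1 from 2302143 to 2363309, 10 exons), stood at 48.8, 30.3 and 40.8 FPKM. GABRD, the delta subunit of receptors outside synapses (ENSFALG00000009470), was the lowest at 16.6, 19.6 and 22.0 FPKM, in each library under the sensitive floor or less than 2-fold over it. Its last exon, with 2981 of its 4658 exon bases, was at 11.2, 17.1 and 15.3 FPKM and weighs most in these levels. In early stimulated its exons 2 to 6 were at 39.4 to 100 FPKM, and its exons 1, 7 and 8 at 2.18 to 25.8 FPKM.

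The exons of GABRA2 did not differ evenly between libraries. Its exons 5 to 8 were at 40.1 to 98.8 FPKM in early stimulated, at 9.79 to 14.4 in late stimulated and at 22.6 to 66.5 in refractory, while the last exon was at 68.7, 74.4 and 76.3 FPKM. Late stimulated was at 0.5 of the early stimulated level or less in 7 of 10 exons of GABRA2, and at 1.08 times that level in the exon at the 3′ end.

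**Figure D2:**
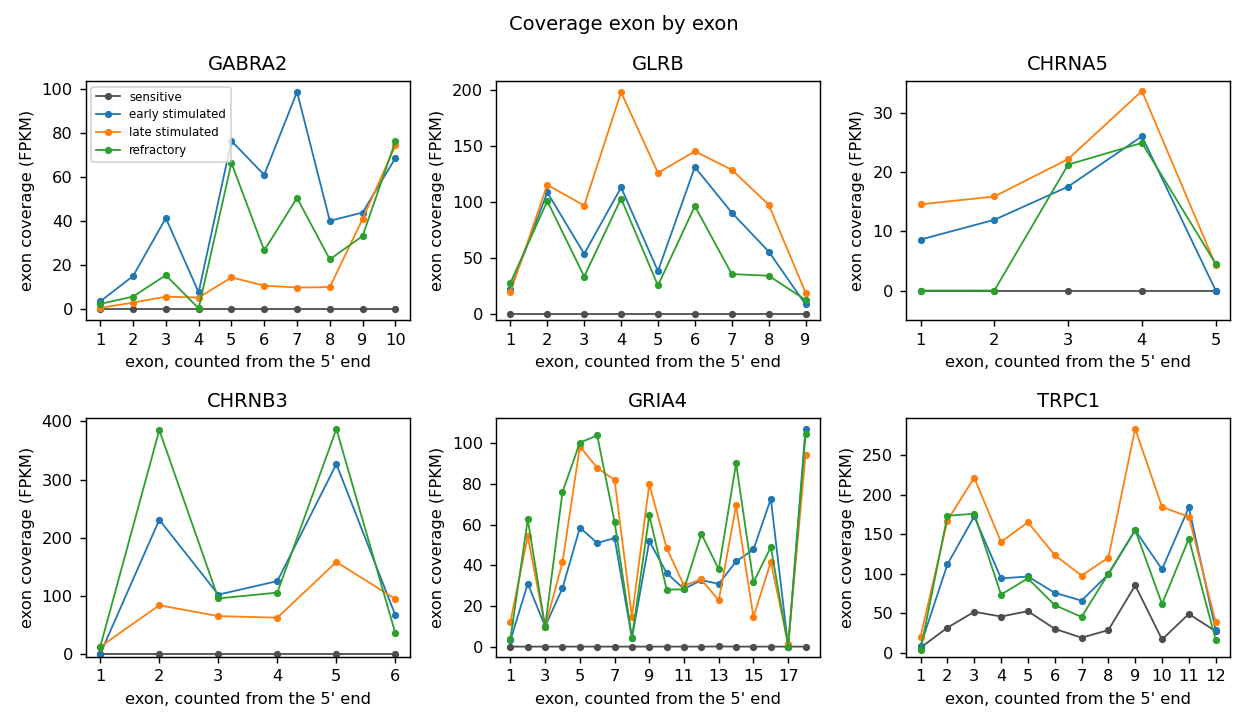
Coverage of each exon in FPKM, counted from the 5′ end of the gene, for 6 channel genes in the 4 libraries. Among these genes, TRPC1 alone has a sensitive line clear of 0, and GABRA2 shows the early and late stimulated libraries apart in exons 5 to 8 and together in the last exon.

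Glycine receptors had an alpha and a beta subunit gene, both uncovered in sensitive. GLRA2, an alpha subunit that forms the channel and is known from developing neurons and the retina (ENSFALG00000004445, minus strand of JH603194.1 from 5184375 to 5314853), stood at 61.7 FPKM in early stimulated, 79.3 FPKM in late stimulated and 76.1 FPKM in refractory. GLRB, the beta subunit that ties the receptor to the synaptic scaffold (ENSFALG00000003093, minus strand of JH603300.1 from 1622226 to 1673793), stood at 23.8, 40.7 and 22.8 FPKM. Over all exon bases the alpha subunit was above the beta subunit in each of these libraries, by 2.59, 1.95 and 3.34 times per length. The exons of GLRB ranged from 8.99 to 131 FPKM in early stimulated, and the lowest was the 3′ exon, with 4555 of its 5784 exon bases. The other exons of GLRB were at 22.6 to 131 FPKM there, and the exons of GLRA2 at 11.6 to 88.4 FPKM. The ratios thus depend on the 3′ exon of GLRB, and no order of these genes follows from them.

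Glutamate receptors were represented by GRIA4, a pore-forming AMPA receptor subunit (ENSFALG00000000431, plus strand of JH603213.1 from 5937251 to 6160690, 18 exons). It stood at 52.5, 54.1 and 59.5 FPKM in early stimulated, late stimulated and refractory. In sensitive it had 0.0040 FPKM, all from another reference gene (ENSFALG00000016170) that lies within 1 of its exons, and without shared bases it was uncovered. Of its reference isoforms, ENSFALT00000000451 with 16 exons was listed in the 3 later libraries at 26.8, 51.1 and 46.1 FPKM under its own name, and ENSFALT00000000449 with 17 exons in late stimulated alone, at 5.11 FPKM. The name GRIA4 held 47.6%, 97.4% and 72.4% of its exon coverage in these libraries, so the isoform values leave out part of that coverage.

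CACNG2, although named as a calcium channel gamma subunit, is best known as stargazin, an auxiliary subunit that carries AMPA receptors to the synapse. It lay on the plus strand of JH603173.1 from 20045433 to 20099007 (ENSFALG00000013007) and was uncovered in sensitive. It stood at 52.1 FPKM in early stimulated, 53.8 FPKM in late stimulated and 62.6 FPKM in refractory. Over all exon bases GRIA4 and CACNG2 were thus close in level in each later library, and neither varied by 2-fold among them. In early stimulated exons 2 to 4 of CACNG2 were at 98.6 to 121 FPKM, and its exons 1 and 5 at 27.7 to 33.1 FPKM. The last exon of GRIA4 was at 107 FPKM there, and its other exons at 0 to 72.6 FPKM. The likeness of the 2 genes thus depends on the annotated exons. Under its own name CACNG2 read 52.9, 5.23 and 18.7 FPKM, and its own name held 9.74% of its exon coverage in late stimulated and 29.8% in refractory.

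Nicotinic receptors had 3 genes, all uncovered in sensitive. CHRNB3, a beta subunit that joins receptors without forming the agonist site (ENSFALG00000005194, plus strand of JH603239.1 from 3723336 to 3738186), was the highest of all 27 genes in early stimulated and refractory, at 151 and 160 FPKM, and stood at 106 FPKM in late stimulated. Its exons too differed unevenly. Late stimulated was at 0.5 of the early stimulated level or less in 3 of 5 exons covered in both. The last exon of CHRNB3 was at 66.3 FPKM in early and 94.3 FPKM in late stimulated. CHRNB4, a beta subunit of ganglionic receptors (ENSFALG00000010665), stood at 11.3, 10.7 and 5.50 FPKM. CHRNA5, an accessory alpha subunit (ENSFALG00000010653), stood at 5.16, 10.1 and 8.08 FPKM. CHRNB3 was thus at least 9.88 times the level of CHRNB4 in each later library, while the values of CHRNB4 and CHRNA5 all lay under the sensitive floor, so no direction against sensitive is measurable for them. In early stimulated no transcript lay over the last exon of CHRNA5, which holds 3818 of its 4994 exon bases, and its exon 4 was at 26.1 FPKM. In late stimulated, transcripts on the opposite strand added 2.50 FPKM over the exons of CHRNA5. Reads of a gene and an antisense partner cannot be told apart where the library does not keep strand.

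The 11 transmitter receptor genes together summed to 578, 685 and 693 FPKM in early stimulated, late stimulated and refractory. They made up 72.1%, 72.7% and 72.0% of the summed level of all 27 genes there, and 10 of the 11 were uncovered in sensitive, GRIA4 being the exception described above.

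Potassium channels had 13 genes, with levels from 0 to 33.4 FPKM in early stimulated. KCNA2, a voltage-gated subunit of axons (ENSFALG00000014636, minus strand of JH603249.1 from 2245151 to 2246650), stood at 2.05 FPKM in sensitive and at 33.4, 35.8 and 52.0 FPKM in the later libraries. It was covered under its own name in every library, so its 16.3-fold difference between early stimulated and sensitive used listed values. The sensitive value lay under the floor of 20.8 FPKM for unmatched transcripts, so this fold rests on a low level. KCNS2, a silent subunit that modifies other voltage-gated channels (ENSFALG00000014931, plus strand of JH603199.1 from 5404275 to 5405708), stood at 0.42, 14.2, 19.4 and 17.5 FPKM. KCNC1, a fast voltage-gated subunit of rapidly firing neurons (ENSFALG00000000754), was uncovered in sensitive and stood at 19.7, 15.6 and 30.1 FPKM, with most of its coverage in the second of 3 exons.

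KCNF1, KCNE4 and KCNJ15 were the potassium channel genes besides KCNA2 and KCNS2 with coverage in sensitive. KCNF1, a silent voltage-gated subunit, stood at 13.4 FPKM in sensitive and at 6.02, 4.19 and 9.02 FPKM in the later libraries. KCNE4, a beta subunit that dampens voltage-gated potassium channels, stood at 9.45 FPKM in sensitive, was uncovered in early stimulated, and was at 0.24 and 0.33 FPKM in late stimulated and refractory. KCNJ15, an inward rectifier, stood at 2.98, 2.45, 6.08 and 8.99 FPKM. KCNE4 and KCNF1 were thus highest in sensitive and KCNJ15 in refractory.

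The remaining 7 potassium channel genes were uncovered in sensitive and never exceeded 4.42 FPKM. KCNA1, a voltage-gated partner of KCNA2, stood at 3.77, 3.21 and 3.33 FPKM, and KCNJ6, an inward rectifier opened by G proteins, at 3.55, 4.41 and 3.92 FPKM. KCNB2, a delayed rectifier, was uncovered in early stimulated and stood at 3.41 and 4.42 FPKM in late stimulated and refractory. KCNS3, a silent voltage-gated subunit, stood at 1.85, 2.30 and 2.46 FPKM. KCNV1, another silent subunit, was at 2.91 FPKM in early stimulated and uncovered elsewhere. KCNJ2, an inward rectifier of muscle and neurons, stood at 1.29, 0.67 and 2.32 FPKM, and KCNJ11, the pore of the ATP-sensitive channel, at 0.09 to 0.52 FPKM. All of these lie under the floors for unmatched transcripts in sensitive. Of the 4 single-exon genes uncovered there, KCNA1, KCNS3, KCNJ2 and KCNJ11, none was listed, while 85.0% of the 553 single-exon reference transcripts listed in sensitive lay under the floor.

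TRPC1 and CLIC4 were the members covered well in all 4 libraries. TRPC1, a cation channel subunit found in many tissues (ENSFALG00000007059, plus strand of JH603178.1 from 4386043 to 4403674, 12 exons), stood at 32.4 FPKM in sensitive and at 66.6, 95.7 and 55.2 FPKM in the later libraries. All 12 of its exons were covered in every library, although in sensitive and refractory no transcript carried its name. CLIC4, a chloride intracellular channel protein of many cell types (ENSFALG00000000472, minus strand of JH603214.1 from 685969 to 694477, 5 exons), stood at 29.5, 15.0, 12.9 and 16.7 FPKM. Sensitive was the lowest library for TRPC1 and the highest for CLIC4.

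The first comparison follows the order of the states and asks how early stimulated differed from sensitive. Genes that reached 1 FPKM in either library were measured, and a gene was called higher or lower once log2(FPKM + 1) differed by 1 or more. With this pseudocount of 1 FPKM the threshold is 2-fold for well covered genes, and the change of low genes is understated. Of 25 channel genes measured, 21 (84.0%) were higher and 2 lower in early stimulated, where 34.5% of all 1782 genes measured were higher and 24.9% lower. The median difference was 3.49 for channel genes and 0.11 for all genes. KCNF1 and KCNE4 were the lower genes.

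Most of the 21 differences started from an uncovered gene. A gene uncovered in sensitive was called higher by construction once it reached 1 FPKM in early stimulated, so such calls restate the missing coverage. Of 7 channel genes covered in both libraries 4 were higher, GRIA4 among them, and 1 was lower. GRIA4 counted as covered in sensitive only through 0.0040 FPKM of an overlapping gene. The others were KCNA2 at 3.49, KCNS2 at 3.42, TRPC1 at 1.02, KCNJ15 at -0.21, CLIC4 at -0.93 and KCNF1 at -1.04. The median difference of the 7, with GRIA4, was 1.02, against -0.16 for all 1203 genes covered in both. The share of those 1203 genes that were higher is not given. With uncovered genes set to the floor of the library, 10 of the 25 (40.0%) remained higher by 2-fold, where 15.4% of all genes did, and the median difference of channel genes was 0.19, against -0.23 for all genes. Among the 10 were CHRNB3, GLRA2, GABRA2, CACNG2, GRIA4, KCNA2, KCNS2 and TRPC1, with differences of 7.24, 5.97, 5.64, 5.73, 5.74, 3.49, 3.42 and 1.02 as listed. With sensitive at its floor CHRNB3 stood 2.80 higher and GLRA2 1.53 higher. GRIA4 was not set to the floor because of its overlap, but its 52.5 FPKM in early stimulated exceeded 42.5 FPKM, the level that lies 2-fold over it. GLRB, KCNC1 and GABRD lay below that level over all their exon bases, while their highest exons in early stimulated were at 131, 42.8 and 100 FPKM. Genes with any listed coverage kept their value, so KCNA2 and KCNS2 stayed among the 10. In sensitive they stood at 2.05 and 0.42 FPKM, under the floor of 20.8 FPKM. In early stimulated KCNA2 at 33.4 FPKM lay below 42.5 FPKM, and KCNS2 at 14.2 FPKM lay under the sensitive floor itself. Of the lower genes, 1 of 25 kept its direction, KCNF1 at -1.04, where 16.6% of all genes did. KCNF1 too kept its values because it was covered in both libraries. They were 13.4 FPKM in sensitive and 6.02 FPKM in early stimulated, under the floors of 20.8 and 12.5 FPKM. KCNE4 at 9.45 FPKM in sensitive lay under the early stimulated floor. Near the threshold were TRPC1 at 1.02 and KCNF1 at -1.04, which were called, and CLIC4 at -0.93, which was not. KCNF1 lost its call under median-of-ratios scaling, at -0.90, and both KCNF1 and TRPC1 lost theirs with a pseudocount of 5, at -0.74 and 0.94.

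**Figure D3:**
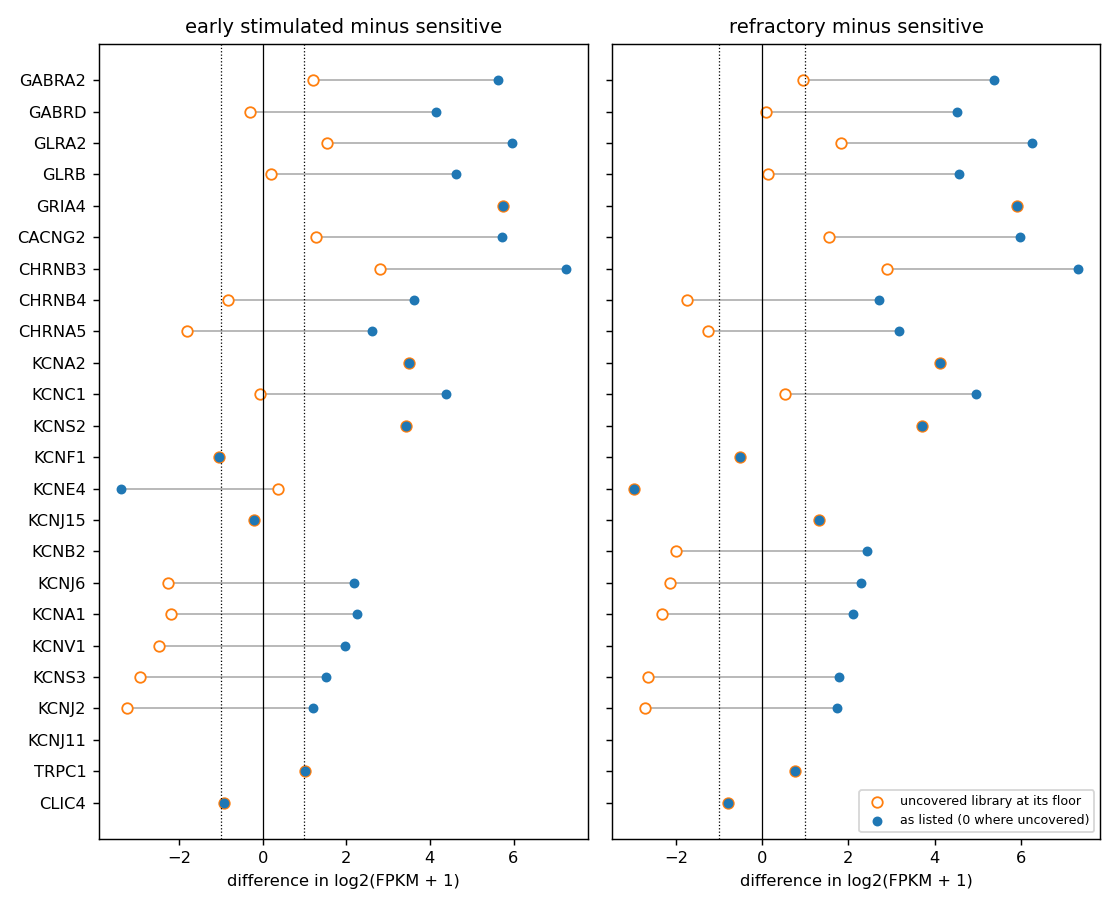
Difference in log2(FPKM + 1) of early stimulated (left) and refractory (right) against sensitive for the channel genes named in the text, as listed (filled points) and with an uncovered library at its floor (open points), with dotted lines at 1 and -1. The receptor genes at the top stay to the right of 0 at the floor, apart from GABRD in early stimulated and CHRNB4 and CHRNA5 in both, and the low potassium channel genes cross 0.

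The next comparison asks how late stimulated differed from early stimulated. Of 25 channel genes measured, 3 (12.0%) were higher and 1 lower, where 10.3% of all 1682 genes were higher and 11.2% lower, so the share of higher genes was near that of all genes. Among the higher genes were KCNJ15 with a difference of 1.04 and KCNB2 with 2.14, and the lower gene was KCNV1 with -1.97. KCNB2 and KCNV1 were each uncovered in 1 of the libraries and lay under that library's floor where covered, so that 2 genes were higher beyond the floor and 0 lower, against 3.51% and 8.09% of all genes. KCNJ15 counted among these 2 because it was covered in both libraries. Its values of 2.45 and 6.08 FPKM both lay under the early stimulated floor of 12.5 FPKM. The median difference was 0.20 for channel genes and -0.07 for all genes. On values under the genes' own names 9 of 24 channel genes were higher and 3 lower, where 25.5% of all 1515 genes were higher and 20.3% lower. CHRNA5 at 1.95 times and GLRB at 1.71 times the early stimulated level lay within the threshold, as did GABRA2 at 0.62 times. The last exon of CHRNA5 was uncovered in early stimulated. Over its 4 exons covered in both libraries the median exon ratio was 1.31 and the highest 1.69.

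Refractory was then set against late stimulated. Of 24 channel genes measured, 0 were higher and 0 lower, where 18.6% of all 1714 genes were higher and 10.6% lower (13.9% and 6.01% beyond the floor, against 0 and 0 channel genes), and the differences ran from -0.85 for CHRNB4 to 0.99 for KCNJ2. KCNF1 at 0.95, KCNC1 at 0.91, GLRB at -0.81 and TRPC1 at -0.78 followed. The median difference was 0.10 for channel genes and 0.16 for all genes. KCNJ2 and KCNF1 stood at 3.44 and 2.15 times their late stimulated levels without the pseudocount, from 0.67 and 4.19 FPKM. With a pseudocount of 0.1 these 2 genes counted as higher. On values under the genes' own names 3 of 24 were higher and 7 lower, where 28.5% of all 1613 genes were higher and 24.4% lower. GLRB and TRPC1 were lower in 8 of 9 and 11 of 12 exons.

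The marker lists had the following counts in these steps. In late against early stimulated 5 of 10 photoreceptor markers were lower and 0 higher, and in refractory against late stimulated 5 of 9 were higher and 1 lower. Neuron markers had 2 of 11 lower and 0 higher in the first of these, and 3 higher and 2 lower in the second. Over all genes 10.3% were higher and 11.2% lower in the first, and 18.6% higher and 10.6% lower in the second. Whether channel genes and either marker list differed in these steps was not tested.

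The last comparison sets refractory against sensitive. Of 25 channel genes measured, 21 (84.0%) were higher and 1 lower, where 36.5% of all 1806 genes were higher and 24.4% lower, with a median difference of 3.70 for channel genes and 0.23 for all genes. Counting only calls that kept their direction and threshold with uncovered genes at the floor, 10 (40.0%) were higher, against 17.3% of all genes, and 1 was lower, KCNE4 with -2.98, where 18.2% of all genes were. Among the 10 were CHRNB3, GLRA2, CACNG2, GRIA4, KCNA2, KCNS2 and KCNJ15, with differences of 7.33, 6.27, 5.99, 5.91, 4.12, 3.70 and 1.33 as listed. With sensitive at its floor CHRNB3 stood 2.89 higher, GLRA2 1.83 higher and CACNG2 1.55 higher. Genes with any listed coverage kept their value here too. KCNS2 (0.42 and 17.5 FPKM) and KCNJ15 (2.98 and 8.99 FPKM) lay under the sensitive floor of 20.8 FPKM in both libraries. KCNE4 stood at 0.33 FPKM in refractory, under that library's floor of 7.86 FPKM. Its 9.45 FPKM in sensitive lay under 16.7 FPKM, the level 2-fold over the refractory floor. TRPC1 at 0.75, KCNF1 at -0.52 and CLIC4 at -0.79 lay within the threshold. This comparison shares the sensitive library with the first, so the likeness of their counts is not a separate result.

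**Figure D4:**
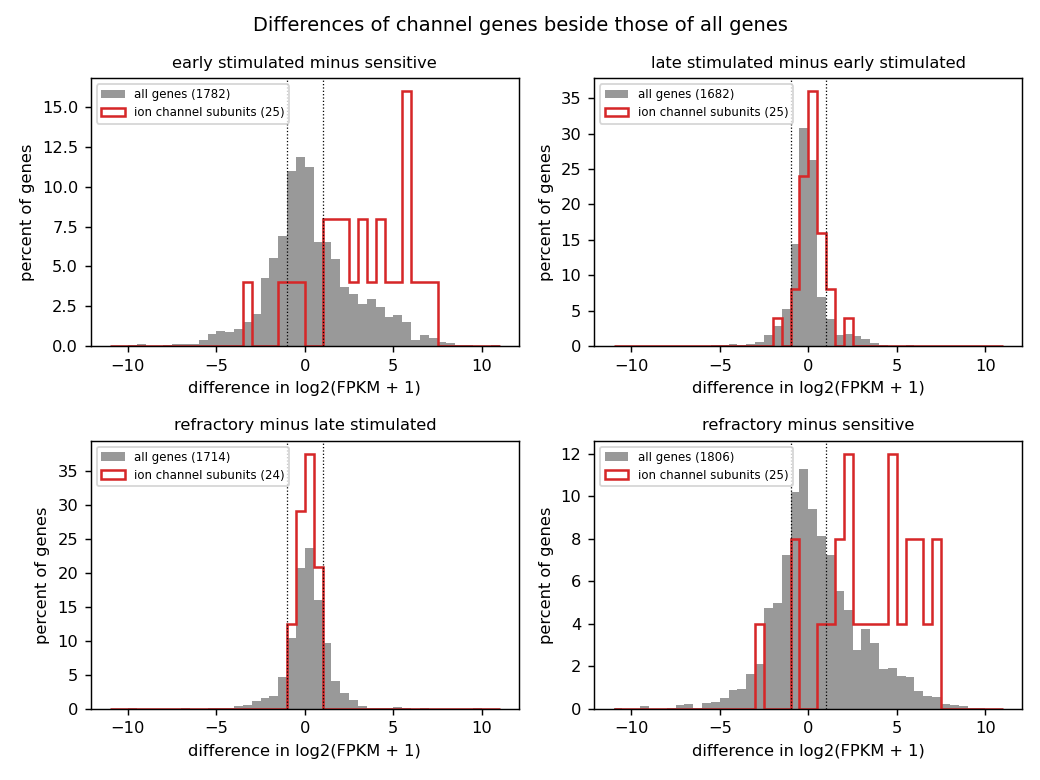
Share of genes in percent by difference in log2(FPKM + 1), in steps of 0.5, for channel genes (red outline) and all genes (grey) in the 4 comparisons, with dotted lines at 1 and -1. Most channel genes lie to the right of 1 in both comparisons with sensitive, and all lie within the dotted lines in refractory against late stimulated.

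Among the 3 later libraries 24 channel genes were covered in each, and 23 of them reached 1 FPKM in a library. For 18 of these 23 (78.3%) the highest level was less than 2 times the lowest. Of 1492 genes of any kind that were covered in all 3 and reached 1 FPKM in a library, 982 (65.8%) met that limit. The median ratio of highest to lowest was 1.56 for these channel genes and 1.66 for all genes. The lowest ratio of a channel gene was 1.13, of GRIA4, and the highest 3.67, of KCNJ15. KCNJ11, under 1 FPKM everywhere, had a ratio of 5.77.

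Genes that act with these channels were taken from 4 lists. Of 50 proteins that anchor, carry or modify channels, 10 had a value, and of 9 measured 6 were higher and 0 lower in early stimulated than in sensitive, 3 of them also at the floor, with a median of 3.65. In that comparison 34.5% of all genes were higher and 24.9% lower, and 15.4% were higher also at the floor. The highest were YWHAB at 993, 799, 910 and 924 FPKM and YWHAE at 342, 349, 378 and 410 FPKM, adaptor proteins of the same family that bind many partners and differed by less than 2-fold. FGF12, which binds voltage-gated sodium channels, was uncovered in sensitive and stood at 56.7, 33.9 and 117 FPKM, and DPP10, which modifies voltage-gated potassium channels, at 60.0, 61.4 and 49.2 FPKM. Of 22 genes of transmitter synthesis and uptake 4 had a value, and all 4 were higher in early stimulated, also at the floor. GAD1 and GAD2, which make GABA, were uncovered in sensitive and stood at 169, 144 and 91.1 FPKM and at 110, 136 and 110 FPKM. ABAT, which breaks GABA down, stood at 29.3 FPKM in sensitive and at 97.5, 130 and 99.4 FPKM. SLC1A3, a glial glutamate carrier, was uncovered in sensitive and stood at 129, 116 and 78.6 FPKM.

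Ion pumps and exchangers had values for 2 of 32 genes. ATP1B3, a subunit of the sodium pump, stood at 114, 339, 453 and 277 FPKM, and ATP2B1, a calcium pump of the cell membrane, at 32.4, 215, 248 and 171 FPKM, so that both were covered in sensitive and higher in early stimulated, by 1.56 and 2.69 on the log2(FPKM + 1) scale. Of 69 channels outside the families of the rule 11 had a value, and of 9 measured in the first comparison 5 were higher and 1 lower. Over all genes 34.5% were higher and 24.9% lower there. VDAC1, the anion channel of the outer mitochondrial membrane, stood at 44.0, 231, 277 and 243 FPKM, and LRRC8B, a subunit of volume-regulated anion channels, at 17.0, 75.0, 99.8 and 71.7 FPKM. GJD2, the gap junction protein of neurons, was uncovered in sensitive and stood at 75.6, 61.1 and 70.0 FPKM. MCU, the mitochondrial calcium uniporter, stood at 49.6, 29.5, 21.0 and 29.3 FPKM. The lower gene was GJA1, a widespread gap junction protein named after its value was seen, at 10.1 FPKM in sensitive and at 0.65 FPKM in early stimulated.

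The way a gene was listed bears on these levels. All 9 single-exon channel genes carried their own name wherever they were covered. Of the 18 genes with several exons, 7, 2 and 7 in the later libraries were covered only by transcripts without their name, and in sensitive 2 were, TRPC1 and GRIA4. Only 5 of the 27 genes bore their name in every library, CLIC4, KCNA2, KCNF1, KCNJ15 and KCNS2. CHRNB3 had its name in late stimulated only, at 106 FPKM, yet 5 of its 6 exons in early stimulated and all 6 in refractory were covered by unnamed fragments.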

How the data were processed

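Total RNA labelled as testis was sequenced in 4 libraries, 1 per state. Per the file headers, the authors ran StringTie 1.3.3b library by library with an Ensembl 89 annotation of another species (collared flycatcher, FicAlb_1.4), and the deposited values are FPKM, TPM and per-base coverage of each transcript. The submitters' processing notes list Trimmomatic. Which aligner was used is not stated in these sources. None of the values is a read count. In the sensitive library, the command line in the header abbreviates the state differently from the title, and the label was followed.

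Exon coverage was computed with Python 3.11.15 and numpy 2.4.6: coverage by all listed transcripts on the gene's strand or without a strand, over the exons of every transcript matched to that gene in the 4 files, divided by exon length and aligned bases (coverage over FPKM). The code for exon coverage was run on the late stimulated library with the coverage of chosen genes changed by known folds. That check did not cover the floor or the calls. Channel genes at 1 FPKM or more in a library are named with their values, except that single-gene values of some are not reported here while counts, sums and medians keep them, and up to 4 genes of each partner list by highest level. Members and lists were chosen with earlier results of these data known. No sequences are shown, since no reference was used here. Alternatives are given in the closing section.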

Additional observations from a re-analysis of the deposited data

How the results depend on the processing

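In the comparisons with sensitive the listing floor moved the counts most among the alternatives run. With uncovered genes at the floor, channel genes higher than in sensitive numbered 10 in early stimulated and 10 in refractory (from 21 each), lower ones 7 and 8, and medians were 0.19 and 0.52. In each comparison 25 channel genes were measured, and the shares of all genes higher or lower in this setting are not given. Apart from KCNF1 in early stimulated and KCNE4 in refractory, the lower genes were ones that turned at the floor, as listed below. Counting only directions kept at the floor, an alternative chosen after seeing the data, gave 10 higher and 1 lower in early stimulated, 10 higher in refractory, and 0 lower in late against early stimulated. Single differences from early stimulated minus sensitive that turned at the floor were CHRNA5 -1.82, CHRNB4 -0.82, GABRD -0.30, KCNA1 -2.19, KCNC1 -0.069, KCNE4 0.36, KCNJ2 -3.25, KCNJ6 -2.26, KCNS3 -2.93 and KCNV1 -2.48. From refractory minus sensitive they were CHRNA5 -1.26, CHRNB4 -1.74, KCNA1 -2.33, KCNB2 -2.01, KCNJ2 -2.71, KCNJ6 -2.15 and KCNS3 -2.65, and from late minus early stimulated KCNB2 -1.61 and KCNV1 0.81. Each turned because its covered level lay under the floor set for the uncovered library, so the turned sign shows no direction. The floor is that of unmatched transcripts, and transcripts matched to the reference were also listed under it.

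Channel genes higher than in sensitive numbered 14 in early stimulated and 15 in refractory under the genes' names, 15 and 15 with a pseudocount of 5, 16 and 16 with a filter at 5 FPKM, and 17 and 18 at 4-fold. The shares of all genes higher than in sensitive under these settings are not given, so these counts describe channel genes alone. Under the genes' names, late against early stimulated had 9 higher and 3 lower, refractory against late 3 higher and 7 lower, and the 4 medians in the order of the comparisons were 2.83, 0.39, -0.14 (reversed) and 2.57. Median-of-ratios scaling gave medians of 3.59, 0.29, -0.061 (reversed) and 3.67, left 1 gene lower in early stimulated and made 1 lower in refractory against late, and moved the median of all genes from 0.11 to 0.24, from -0.07 to 0.04, from 0.16 to -0.03 and from 0.23 to 0.29. A pseudocount of 0.1 gave medians of 5.72, 0.20, 0.12 and 5.81 and 2 genes higher in refractory against late. A pseudocount of 5 gave 1.82, 0.091, 0.079 and 2.05, with 1 lower in early stimulated and 1 higher and 0 lower in late. A filter at 5 FPKM gave medians of 4.37, 0.13 in refractory against late and 4.55, with 0 lower in late. No filter gave 3.46, 0.11 and 3.44, and exon bases of no other gene 0.10 in refractory against late. At 4-fold, 1 gene was lower in early stimulated and 1 higher and 0 lower in late. The cause of each change was not tested. No paired analysis was possible because each state has 1 library and no test. Depth limits sensitive most, at 120.5 Mb.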
